A study of Mus musculus with 4 samples.

Results

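The genes described here act in apoptosis and in the p53 pathway: Trp53, Trp73, Mdm2, Mdm4, Apaf1, Bbc3, Pmaip1 and Bcl2l11. Their E2F1 ChIP-seq peaks were taken by position, as every peak that overlapped a window from 1000 bp upstream to 500 bp downstream of any GENCODE M1 transcript start on mm9. Of the 4523 peaks of the series, 4 met this rule, 1 each at Mdm2, Apaf1, Bbc3 and Bcl2l11. Trp53, Trp73, Mdm4 and Pmaip1 had no peak. E2F1 occupancy was measured in 4 samples of mouse embryonic stem cells (ESCs), all precipitated with an antibody against E2F1. In serum ESCs (2 biological replicates) the medium held fetal calf serum and the cytokine LIF. In 2i ESCs (2 biological replicates) it was a serum-free medium with LIF, the MEK inhibitor PD0325901 and the GSK3 inhibitor CHIR99021. Cells had been adapted to their medium for over 20 days, and no sorting by cell-cycle phase is described for ChIP. The ESC line is not given for these samples in the sources used here, and the labelled cell type was not checked against markers because no expression values were analysed. The signal comes from a whole population, so that more cells with E2F1 at a site and more E2F1 per cell cannot be told apart.

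E2F1 activates genes for S-phase entry when the RB family proteins release it, and it can also promote apoptosis, in part through Trp73 and Apaf1. Trp53 encodes the transcription factor p53, which is kept low by the ubiquitin ligase Mdm2 and its partner Mdm4. p53 and its relative p73 activate the BH3-only genes Bbc3 (PUMA) and Pmaip1 (NOXA), whose proteins, like that of Bcl2l11 (BIM), open the mitochondrial route of cell death. Apaf1 then forms the apoptosome, the complex that activates caspase-9.

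The DNA under the 4 peaks is shown first, because the peaks differ in where they lie and in whether they hold an E2F motif. The E2F motif was searched as TTTGGCGC, TTTCCCGC, TTTGCCGC and TTTCGCGC on both strands, and also without the first letter. Each stretch was read from the mm9 genome, lies inside the peak, leaves out annotated untranslated and coding sequence, and is written 5′ to 3′ along the gene, with a motif match in capitals.
Apaf1, chr10:90545516-90545684, minus strand: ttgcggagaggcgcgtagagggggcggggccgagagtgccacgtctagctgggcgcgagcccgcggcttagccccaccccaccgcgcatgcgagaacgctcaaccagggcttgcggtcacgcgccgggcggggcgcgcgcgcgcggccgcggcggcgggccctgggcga
Bbc3, chr7:16895505-16895803, plus strand: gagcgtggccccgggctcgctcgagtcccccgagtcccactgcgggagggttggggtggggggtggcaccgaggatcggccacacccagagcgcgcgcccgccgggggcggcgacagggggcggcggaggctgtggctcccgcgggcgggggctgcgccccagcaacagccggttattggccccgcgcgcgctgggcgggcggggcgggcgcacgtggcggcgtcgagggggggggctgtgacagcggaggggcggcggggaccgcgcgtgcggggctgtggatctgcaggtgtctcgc
Bcl2l11, chr2:127953223-127953522, plus strand: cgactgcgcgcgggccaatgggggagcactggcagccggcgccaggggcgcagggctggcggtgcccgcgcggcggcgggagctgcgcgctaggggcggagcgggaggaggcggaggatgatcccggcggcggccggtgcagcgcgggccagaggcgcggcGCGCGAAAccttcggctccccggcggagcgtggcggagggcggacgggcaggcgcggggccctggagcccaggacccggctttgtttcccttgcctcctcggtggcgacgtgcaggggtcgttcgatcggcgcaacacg
Mdm2, chr10:117147815-117148114, minus strand: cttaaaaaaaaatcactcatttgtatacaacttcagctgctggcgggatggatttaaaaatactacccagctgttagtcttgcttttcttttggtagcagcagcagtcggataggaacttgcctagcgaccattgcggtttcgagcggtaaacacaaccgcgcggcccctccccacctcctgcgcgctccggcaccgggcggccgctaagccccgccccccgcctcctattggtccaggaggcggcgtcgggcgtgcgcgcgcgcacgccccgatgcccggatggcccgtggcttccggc

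The peaks at Apaf1 and Mdm2 covered the first protein-coding start of the gene, and those at Bbc3 and Bcl2l11 lay downstream of it. The Apaf1 peak (chromosome 10, 90545282 to 90545735, as deposited) had its centre 7 bp downstream of the start at 90545515, and spanned the 5′UTR of Apaf1, the gap printed above and the first bases of the 5′UTR of Ikbip. Ikbip encodes a protein named for its interaction with IκB kinase, and is transcribed in the opposite direction from 90545685, so that its peak and that of Apaf1 are the same peak. The Mdm2 peak (chromosome 10, 117147654 to 117148123) was centred 74 bp upstream of the start at 117147814 and reached into the 5′UTR of the first exon. At Bbc3 the peak (chromosome 7, 16895505 to 16895814) was centred 694 bp downstream of the first protein-coding start, in the first intron of transcript Bbc3-001. Its centre lay 145 bp upstream of a second protein-coding start, that of Bbc3-002 at 16895804, which the peak covered. The Bcl2l11 peak (chromosome 2, 127953155 to 127953592) began 1381 bp downstream of the first protein-coding start, outside the window of every protein-coding transcript. It met the rule through the starts of non-coding transcripts at 127953311 (Bcl2l11-004) and 127953867. Its centre followed the first of these by 62 bp, and it lay in an intron of the protein-coding transcripts. With protein-coding transcripts only, 3 of the 4 peaks would remain.

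**Figure D1:**
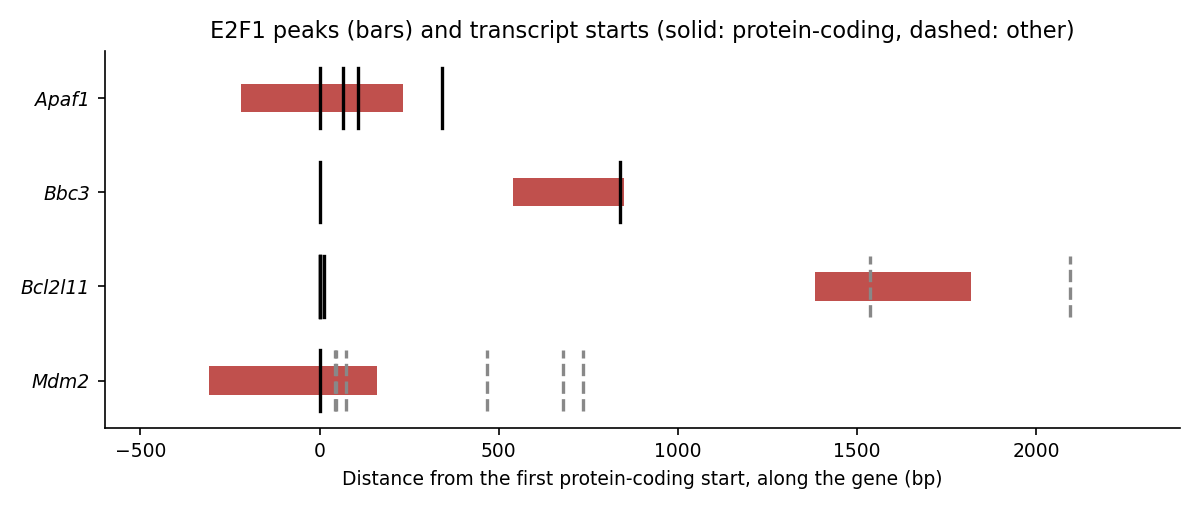
Position of the E2F1 peak (bar) at Apaf1, Bbc3, Bcl2l11 and Mdm2 on the x axis, in bp from the first protein-coding start along the gene, with protein-coding starts as solid and other starts as dashed lines. The bars of Apaf1 and Mdm2 cover 0, that of Bbc3 runs from 540 to 849 bp and that of Bcl2l11 from 1381 to 1818 bp.

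E2F1 occupancy was compared between serum and 2i ESCs on the normalized read count. This is the number of reads over a peak divided by a size factor of the sample. Dividing by a size factor can remove a change in occupancy shared by most peaks, so differences are relative to the other peaks. Apaf1 had the lowest signal of the 4 peaks. It was the only one of them whose serum and 2i values did not overlap, which was also the case at 49.3% of all peaks. Serum replicates 1 and 2 had normalized counts of 24.4 and 22.9, and 2i replicates 1 and 2 had 47.0 and 39.6. Both 2i values were thus above both serum values. The serum mean was 23.6 ± 1.07 (SD, n = 2) and the 2i mean 43.3 ± 5.22 (SD, n = 2). By the reads inferred from the steps of the normalized values, these rest on 14 and 24 reads in serum and on 84 and 38 reads in 2i, which sets the counting error of each value. The 95% exact Poisson interval was 13.3 to 40.9 and 14.7 to 34.0 for serum replicates 1 and 2, and 37.5 to 58.2 and 28.1 to 54.4 for 2i replicates 1 and 2. That of serum replicate 1 included the value of 2i replicate 2, and the other intervals held no value of the other condition. The log2 ratio of serum to 2i, on log2(normalized count + 1), was -0.84 ± 0.40 (SE), which is 1.79-fold more signal in 2i. Its 95% interval ran from -1.72 to 0.04 and the adjusted p was 0.293 (limma, Benjamini-Hochberg over all 4523 peaks), so the difference did not pass the test.

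At the BH3-only gene Bbc3, the replicates of a condition lay further apart than the conditions. The 2 serum libraries had 45.3 (replicate 1) and 76.3 (replicate 2) normalized counts, and the 2 2i libraries 29.1 (replicate 1) and 55.3 (replicate 2). Replicate 2 was above replicate 1 in both conditions, by 0.74 on the log2 scale in serum and by 0.90 in 2i, where counting noise alone gives an SD of 0.33 and 0.28. Serum averaged 60.8 ± 21.9 (SD, n = 2) against 42.2 ± 18.5 (SD, n = 2) for 2i, and the ranges overlapped. The log2 ratio was 0.54 ± 0.42 (SE), with a 95% interval from -0.38 to 1.46 and an adjusted p of 0.543 in limma. Without 2i replicate 2 it was 0.99 and without serum replicate 1 it was 0.91, whereas it was 0.17 without serum replicate 2 and 0.09 without 2i replicate 1.

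Bcl2l11, whose product BIM is a BH3-only protein regulated by ERK signaling, had similar values in both conditions. The normalized count was 61.0 and 54.3 in serum replicates 1 and 2, and 63.3 and 43.8 in 2i replicates 1 and 2. Both serum values lay between those of 2i. Serum averaged 57.7 ± 4.70 (SD, n = 2) and 2i averaged 53.5 ± 13.8 (SD, n = 2). The log2 ratio was 0.13 ± 0.34 (SE), and limma gave an adjusted p of 0.889.

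Mdm2, the p53 ubiquitin ligase, had the highest mean of the 4 peaks. Serum replicate 1 had a normalized count of 57.5 and serum replicate 2 had 81.0, against 62.7 and 59.5 in 2i replicates 1 and 2. Both 2i values thus fell within the serum range. The average was 69.3 ± 16.6 (SD, n = 2) for serum and 61.1 ± 2.29 (SD, n = 2) for 2i, and the log2 ratio was 0.16 ± 0.32 (SE; adjusted p = 0.843, limma). The 95% interval ran from -0.54 to 0.86 at Mdm2 and from -0.62 to 0.87 at Bcl2l11. Both intervals left out a 2-fold difference in either direction, relative to the other peaks. Those of Apaf1 and Bbc3 each reached past 2-fold on one side.

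**Figure D2:**
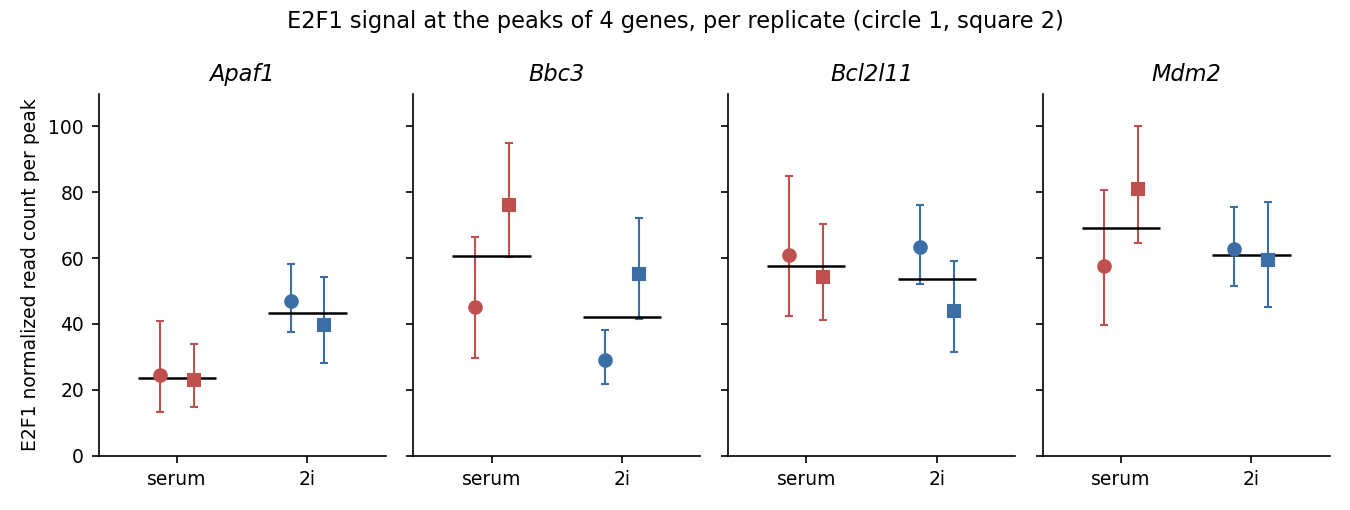
Normalized E2F1 read count (y axis) at Apaf1, Bbc3, Bcl2l11 and Mdm2 in serum and 2i ESCs, with 1 point per replicate, its 95% exact Poisson interval as error bar and the mean of each condition as a black line. The values at Apaf1 are 24.4 and 22.9 in serum below 47.0 and 39.6 in 2i, and those of the other genes overlap between conditions.

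Calls required an absolute log2 ratio above 1 together with a limma p under 0.05 before adjustment. None of the 4 peaks was called (0 of 4), where 10.3% of all peaks were. At an unadjusted p under 0.05 without the fold change, limma also gave 0 of 4, against 17.8% of all peaks. Apaf1 alone went below this p in alternative fits with all samples, at 0.0233 in limma without the variance trend and at 0.0417 in limma after rescaling to the same total. With an adjusted limma p under 0.05 and an absolute log2 ratio above 1 the count was 0 of 4, against 1.46% of all peaks. Serum and 2i replicates did not overlap at 1 of 4 peaks (Apaf1), against 49.3% of all peaks. The median log2 ratio of the 4 peaks was 0.14, and it was -0.03 over all peaks. For a single peak, a two-sided exact permutation test of 2 against 2 samples cannot give a p under 0.333, so that the test relies on the spread shared across peaks.

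In strength, the 4 peaks were ordinary members of the series. Mean normalized counts were 65.2 at Mdm2, 55.6 at Bcl2l11, 51.5 at Bbc3 and 33.5 at Apaf1, and the median over all peaks was 62.7. By this mean, Mdm2 ranked 2182 of 4523, Bcl2l11 2511, Bbc3 2661 and Apaf1 3545. The lengths were 470, 438, 310 and 454 bp in the same order. Per kb of peak, the normalized count was 166 at Bbc3, 139 at Mdm2, 127 at Bcl2l11 and 73.8 at Apaf1, with a median of 125 over all peaks. The short peak at Bbc3 thus came first per length but after Mdm2 and Bcl2l11 by mean, and Apaf1 came last on both scales. The steps between Mdm2, Bcl2l11 and Bbc3 in mean signal were smaller than the SD between their replicates in at least 1 condition.

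**Figure D3:**
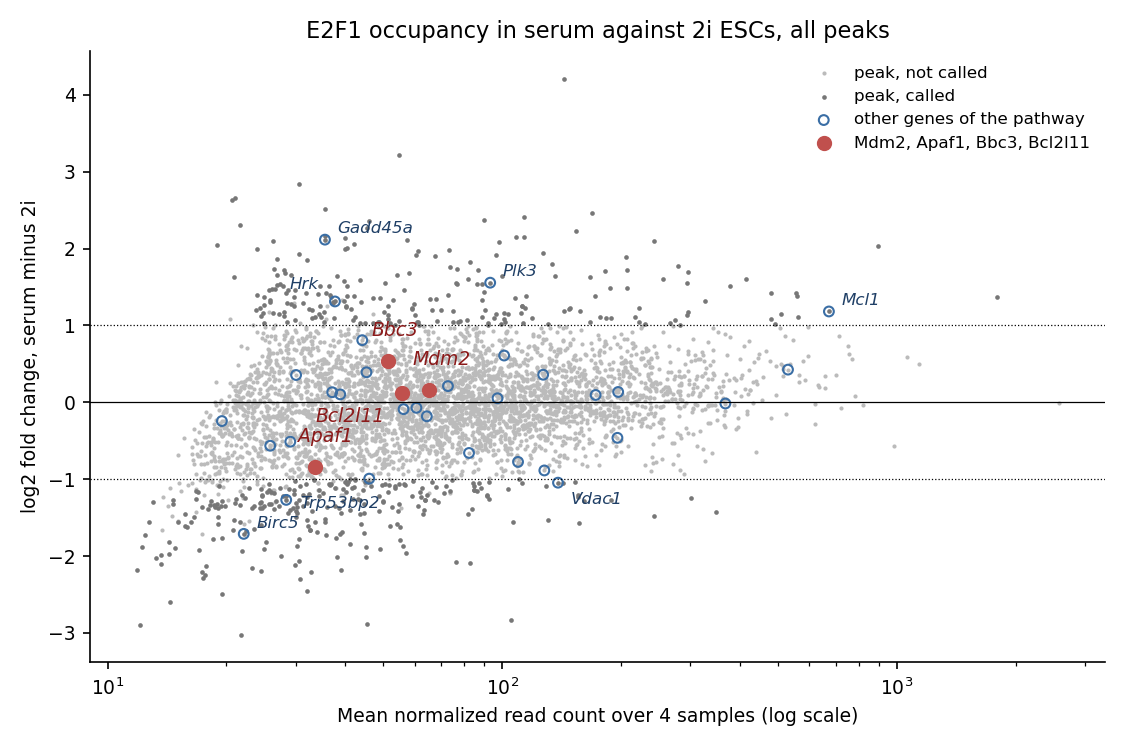
Log2 ratio of E2F1 occupancy (y axis, serum minus 2i) against the mean normalized count over 4 samples (x axis, log scale) for all 4523 peaks, with called peaks in dark gray, the 4 peaks at Mdm2, Apaf1, Bbc3 and Bcl2l11 in red and those of other pathway genes as blue rings. The red points lie between -0.84 and 0.54, inside the dotted lines at a 2-fold change.

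Trp53, Trp73, Mdm4 and Pmaip1 had no peak at a start and none within the gene, so they have no value in any sample here. A site bound below the peak threshold, or in only one replicate of a condition, would also have none. Trp53 has 5 distinct starts in the annotation, and the peak nearest to any of them lay 44.4 kb downstream, at Fxr2. For Trp73 the nearest peak was 20.4 kb upstream, at Tprgl, and neither the upstream start at 153514317 nor the internal starts at 153471276 and 153471282 had one. Mdm4 had its nearest peak 20.7 kb upstream, at Pik3c2b, and for Pmaip1 it was 831 kb downstream, at Impa2. Among all protein-coding genes of the annotation, 19.0% had a peak in the window, and 4 of these 8 genes did. Of the 37 distinct starts of the 8 genes, 14 had a peak in their window, 7 of them at Mdm2.

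An E2F motif of 8 letters was found at 1 of the 4 peaks. In the Bcl2l11 stretch printed above, GCGCGAAA, which is TTTCGCGC on the other strand, lies 14 bp from the peak centre and 76 bp downstream of the start of Bcl2l11-004 (chromosome 2, 127953384 to 127953391). No match of 8 or 7 letters was found within 200 bp of the centre at Apaf1, Bbc3 or Mdm2. Of 4509 peaks on assembled chromosomes, 5.10% held the 8-letter motif in the same window of 401 bp, and 29.3% the 7-letter motif. Windows of 1501 bp were also searched at the start used by most transcripts of each protein-coding gene. Where starts tied, as at Bbc3 and Trp73, the one with the lowest coordinate was taken. The 8-letter motif occurred in 7.87% of these 22380 windows, and in none of those of the 8 genes described here. The 7-letter motif occurred in 28.8% of these windows and in those of 5 of the 8 genes, with 3 matches at Bbc3 and 1 each at Apaf1, Bcl2l11, Mdm2 and Pmaip1. Of all starts of the genes without a peak, that of the non-coding transcript of Trp53 at 69402197 had 1 match of 8 letters. The upstream start of Trp73, with as many transcripts as the start taken, had 3 of 7 letters and 0 of 8.

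The peaks were rich in G and C, like the peaks of the series. The GC content within 200 bp of the centre was 76.6% at Bcl2l11, 75.6% at Bbc3, 72.8% at Apaf1 and 65.8% at Mdm2, and the median over all peaks was 75.6%. Mdm2 was at percentile 5.70 of all peaks in GC content, and the ratio of observed to expected CpG, 1.06, was the highest of the 4. The other ratios were 1.03 at Bcl2l11, 1.03 at Apaf1 and 0.895 at Bbc3, with a median of 0.967 over all peaks. The letters GGGCGG (a GC box, on either strand) occurred at 4 of the 4 peaks, with 7 matches at Bbc3, 4 at Bcl2l11, 3 at Apaf1 and 2 at Mdm2, and at 91.2% of all peaks. CCAAT, on either strand, occurred at Bcl2l11, Bbc3 and Mdm2 and at 19.8% of all peaks.

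Other genes of the pathway were taken from 5 lists of 107 symbols in all, of which 103 were in the annotation and 31 had a peak. Of these 31 peaks, 7 (22.6%) passed as calls. Of the 7 calls, 4 were on the serum side and 3 on the 2i side. Over all peaks, 4.82% were called on the serum side and 5.48% on the 2i side. The median log2 ratio of the 31 peaks was 0.05.

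The BCL2 family list, whose proteins set the threshold for mitochondrial cell death, had peaks at 4 of 18 genes. Of these 4 peaks, 2 were called, both higher in serum. The list had 3 positive log2 ratios and 1 negative one, with a median of 0.66. Mcl1, an antiapoptotic member, had normalized counts of 915 and 950 in serum replicates 1 and 2 and of 362 and 465 in 2i. Its log2 ratio was 1.18 (adjusted p = 0.0761, limma). Hrk, a BH3-only gene like Bbc3, had 67.9 and 41.0 in serum against 24.1 and 17.7 in 2i, which is a ratio of 1.31 in log2 (limma, adjusted p = 0.152). The call at Hrk was lost without serum replicate 1 (0.95) or without 2i replicate 2 (1.10), and that at Mcl1 under cyclic loess normalization (0.78). Whether Hrk differed from Bbc3 in its response was not tested.

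Among p53 target genes, 9 of 27 genes had a peak and 2 peaks were called, both higher in serum. Plk3, a stress-responsive kinase, had 132 and 147 in serum and 43.7 and 50.1 in 2i, and its log2 ratio of 1.56 was the only one of the 31 with an adjusted p under 0.05 (0.0266, limma). The adjusted limma p of Plk3 was 0.0773 without the variance trend and 0.0842 to 0.134 with any 1 replicate left out. Gadd45a, a gene of growth arrest and DNA damage, had 47.0 and 67.7 in serum and 20.2 and 7.30 in 2i. Its log2 ratio was 2.12 (adjusted p = 0.078, limma), and its peak also lay at a start of E230016M11Rik. The value of 2i replicate 2 rests on 7 reads, and the ratio was 1.44 without that replicate and 2.79 without 2i replicate 1. Of the 9 log2 ratios, 5 were positive and 4 negative, with a median of 0.21. Phlda3, named after its values were seen, was the only other of the 9 peaks with an unadjusted p under 0.05 and was higher in 2i. It had 78.4 and 82.9 in serum and 137 and 141 in 2i, and a log2 ratio of -0.78 (adjusted p = 0.156, limma).

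Peaks were found at 12 of the 22 p53 regulators in the annotation, with 6 positive and 6 negative log2 ratios and a median of 0.02. The 1 called peak, at Trp53bp2, which encodes the p53-binding protein ASPP2, was higher in 2i and also lay at a start of Gm10517. It had 10.5 and 22.9 in serum and 49.8 and 30.3 in 2i, with a ratio of -1.27 in log2 (limma, adjusted p = 0.229). The value of serum replicate 1 rests on 6 reads. The call was lost under cyclic loess normalization (-0.94), with a pseudocount of 8 (-0.98), without serum replicate 1 (-0.74) and without 2i replicate 1 (-0.92).

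Of the caspase and apoptosome genes, to which Apaf1 belongs by function, 4 of 27 had a peak, and no caspase was among them. Both called peaks were higher in 2i. This list had 1 positive log2 ratio and 3 negative ones, with a median of -0.56. Vdac1, a channel of the outer mitochondrial membrane, had 99.3 and 80.1 in serum and 216 and 159 in 2i, with a log2 ratio of -1.05 (limma, adjusted p = 0.0898). It was just past the threshold, and the call was lost with a pseudocount of 8 (-0.99), without serum replicate 2 (-0.89) and without 2i replicate 1 (-0.82). Birc5 (survivin) had 3.48 and 20.0 in serum against 43.1 and 21.9 in 2i, and the first of these was 2 reads. Its log2 ratio of -1.71 (adjusted p = 0.241, limma) was -0.60 without serum replicate 1, -2.83 without serum replicate 2 and -0.82 under cyclic loess normalization, and the call was also lost without 2i replicate 1 (-1.24) or 2i replicate 2 (-2.18). In the death receptor list 2 of 13 genes had a peak and 0 were called, with 0 at an unadjusted p under 0.05 as well (limma). The larger change of the 2, at Ripk1, a kinase of the death receptor complex, was -0.56 (adjusted p = 0.551, limma), and that peak also lay at a start of Serpinb6a.

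**Figure D4:**
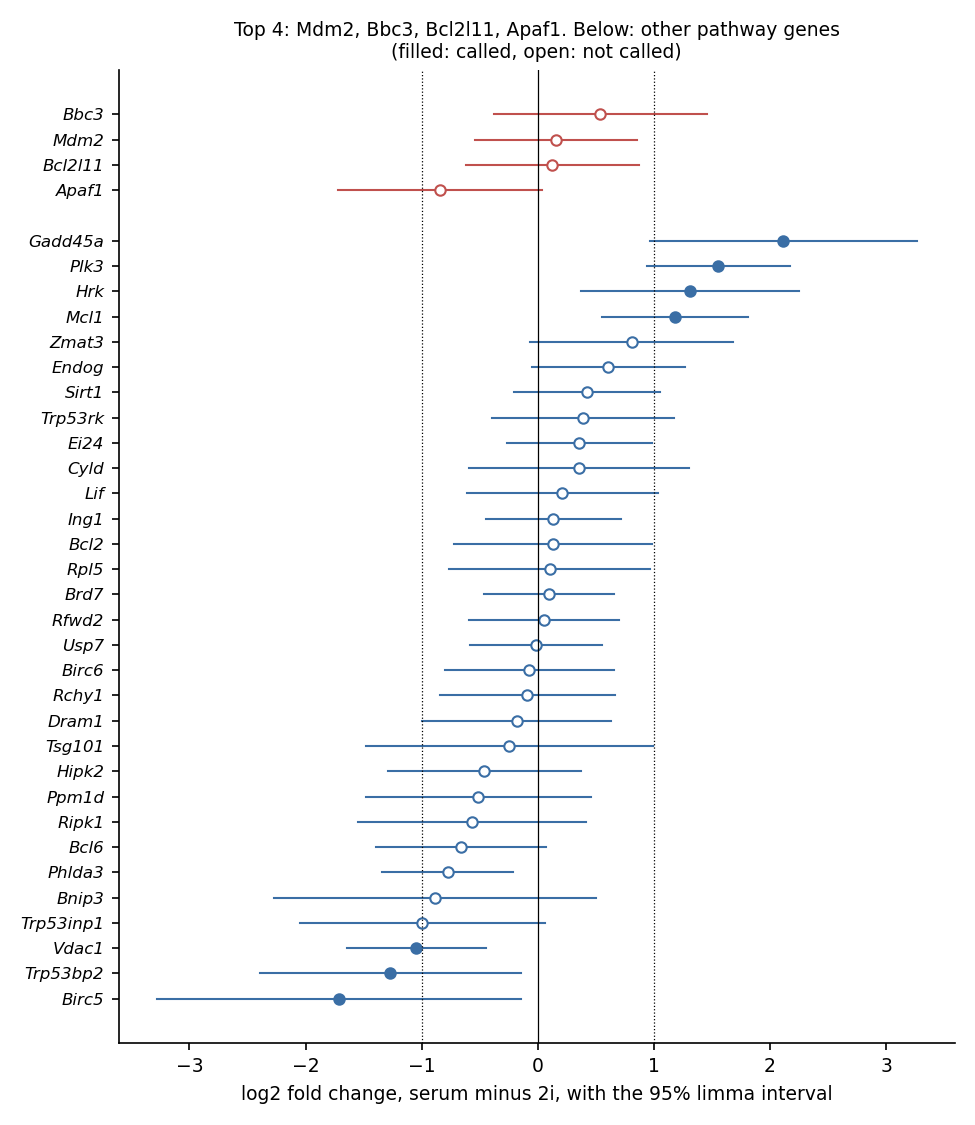
Log2 ratio of E2F1 occupancy (x axis, serum minus 2i) with the 95% limma interval at Bbc3, Mdm2, Bcl2l11 and Apaf1 (red) and at 31 peaks of other pathway genes (blue), with filled points for called peaks and dotted lines at a 2-fold change. Gadd45a, Plk3, Hrk and Mcl1 are called on the serum side and Vdac1, Trp53bp2 and Birc5 on the 2i side.

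The profile of Apaf1, the peak with the largest change of the 4, was matched to the other 4089 peaks at transcript starts by the Euclidean distance of the 4 log2 values, each centred on its mean. The nearest were at Arpc2 (distance 0.06), 2410012M07Rik (0.083) and Yeats4 (0.086). Arpc2, a subunit of the actin-nucleating Arp2/3 complex, had normalized counts of 47.0 and 45.8 in serum and 87.9 and 77.2 in 2i. Of the 4089 peaks, 44 lay within a distance of 0.25.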

How the data were processed

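E2F1 ChIP-seq was analysed in 2 serum and 2 2i samples of mouse ESCs, grouped by their labels. Per the methods, the authors mapped read pairs with BWA (mm9), dropped picard duplicates and ENCODE blacklisted regions, called peaks per sample with macs2, kept those found in both replicates, merged the serum and 2i sets, counted reads with bedtools multicov and normalized with DESeq2; versions are not given in the sources used here. The deposited values are a normalized signal per peak. Of 18092 values, 99.95% were whole multiples of the worth of 1 read (tolerance 0.1 reads), from which the reads behind each value were inferred. The smallest value is more than 1 read in 3 of the 4 samples, so that the worth of 1 read rests on the spacing of the values. Read numbers, counting errors and Poisson intervals all rest on this inference. The other 9, all exactly 2 in serum samples, are not at the peaks named here. Reads in peaks ranged from 248878 (serum replicate 1) to 710519 (2i replicate 1), with medians of 35 to 111 per peak. Poisson intervals cover counting error only. Coordinates of peaks are given unchanged, since no source says whether starts count from 0 or 1.

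All 4523 peaks were fitted together with limma 3.58.1 (R 4.3.3) on log2(value + 1), with a variance trend, no block and Benjamini-Hochberg adjustment. Adding 1 understates the fold change of weak peaks. The fit was tested on simulated data. Thresholds follow the methods, whose p is not stated to be adjusted. The methods applied them to DESeq2 and not to limma, so the calls and shares given here are not those of the paper. Annotation was GENCODE M1 on NCBIM37 (mm9), and sequences were read from that genome with Python 3.11.15 (numpy 2.4.6, pandas 2.3.3, scipy 1.17.1, matplotlib 3.10.9). The 8 genes and the pathway lists were chosen with earlier results of these data known. Named peaks are all peaks of the 8 genes, genes sharing them, each called peak of a list or, where a list had none, its largest change, and the 3 profiles nearest to that of the most changed of the 8 genes' peaks. The search for GC and CCAAT boxes was added after seeing the sequences. Lists were described, not tested. Replicates are labelled biological, but separate cultures are not stated.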

Additional observations from a re-analysis of the deposited data

How the results depend on the processing

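None of the 4 peaks at Apaf1, Bbc3, Bcl2l11 and Mdm2 was called under any alternative run, including each replicate left out, where limma assumed that the lone sample varies like the other condition. With all 4 samples, the log2 fold change kept its sign and ran from -0.93 to -0.70 at Apaf1, 0.45 to 0.56 at Bbc3, 0.04 to 0.13 at Bcl2l11 and 0.07 to 0.17 at Mdm2, with adjusted p from 0.218 to 0.970. Only the unadjusted p of Apaf1 crossed 0.05, in limma without the variance trend (0.0233) and after rescaling to the same total (0.0417). Apaf1 was not tested with a minimum mean of 50, which its mean of 33.5 misses. With 1 replicate left out, the range was -0.96 to -0.72 at Apaf1, 0.09 to 0.99 at Bbc3, -0.13 to 0.39 at Bcl2l11 (below 0 without 2i replicate 2) and -0.09 to 0.40 at Mdm2 (-0.085, without serum replicate 2). Rescaling to the same total moved the median of all peaks from -0.03 to -0.12.

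Of the 31 peaks at other pathway genes, 7 were called, against 10.3% of all peaks. This became 4 under cyclic loess normalization (8.56% of all peaks), 3 of the 18 peaks with a minimum mean of 50, which tests fewer peaks (6.88%), 5 with a pseudocount of 8 (7.01%) and 5 to 8 with 1 replicate left out (8.36 to 14.9%). The adjusted p of Gadd45a was 0.0426 in limma under cyclic loess normalization. The cause of the lower count under that normalization was not tested.

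The replicate numbers are not stated to mark a shared batch, and the differences between replicates had a correlation across peaks of 0.048 between serum and 2i. With the replicate block 0 of 4 and 7 of 31 peaks were called, and 11.1% of all peaks; the limma adjusted p was 0.287 at Apaf1, 0.465 at Bbc3, 0.904 at Bcl2l11 and 0.865 at Mdm2, and it became 0.00199 at Gadd45a, 0.00198 at Mcl1 and 0.0117 at Vdac1. The 2 planned count-model fits were not run, because the inferred reads did not pass a check that starts from the smallest value of each column. The lowest inferred number of reads at the 4 peaks was 14, at Apaf1 in serum replicate 1, and without that library the log2 ratio of Apaf1 was -0.89 (adjusted p = 0.450, limma).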
